A study of Mus musculus with 12 samples.

Results

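The 36 genes described here encode the autophagy machinery of the mouse, from the kinase that starts the process to the proteins that carry cargo into it. They were chosen as a fixed list of gene symbols and make up 36 of the 24062 genes counted in 12 RNA-seq libraries, 1 per mouse. Of the 36, 5 act in initiation, 5 in the class III PI3K complexes, 5 in reading PI3P and moving lipid, 7 in conjugation, 4 as LC3 proteases, 5 form the LC3 family and 5 are cargo receptors.

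In autophagy, a double membrane closes around cytoplasm or an organelle and delivers it to the lysosome, where it is broken down to amino acids and other building blocks. The ULK1 kinase complex and the class III PI3K complex start the membrane, PI3P-binding proteins and ATG2/ATG9A supply it with lipid, and a pair of ubiquitin-like conjugation systems attaches LC3 and GABARAP proteins to its lipid, which cargo receptors then bind. In liver the process is known to be switched on by fasting and amino acid shortage through mTORC1, and many of these genes are targets of the TFEB, FOXO and PPARα transcription factors. RNA levels do not measure the rate of autophagy, since LC3 and the receptors are themselves degraded by it.

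Both models were fed for 21 days on a control diet, named Complete diet in the labels, or on a No-Trp diet, which lacks tryptophan, an essential amino acid. The MYC-ON livers came from male FVB mice carrying LAP-tTA and TRE-MYC, in which the liver promoter LAP drives the tTA activator of a human MYC transgene once doxycycline is withdrawn at birth, and whole liver with its tumors was sequenced from control mice 101, 102 and 103 and No-Trp mice 105, 107 and 108. The labels give the liver mice an age of 45 days, which the methods state for another comparison of the study. The HCC53N xenografts grew subcutaneously in the flanks of NOD SCID females (NOD-SKID in the labels), which lack T and B cells, with control mice 40, 41 and 43 and No-Trp mice 35, 36 and 37. HCC53N is 1 line of mouse liver cancer cells with p53 deleted and mutant NRAS, and the labels also tie it to MYC while the study's methods describe no MYC transgene in it. Reads of host tissue in a xenograft cannot be told apart from those of the tumor cells. The labels do not say whether the mice of a group shared a litter or cage, and p-values measure the spread between these mice.

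Reads counted on genes ranged from 14660963 to 26085349 per library, and the 36 genes together took 42278 to 76849 of them. Control liver 101 stands apart in that 12.1% of its counted reads lie on the ribosomal RNA gene Rn45s, against 0.261% to 2.22% in the other 11 libraries. Markers of several cell types differed between the diets in the livers. The 10 hepatocyte markers summed to 8562 to 34872 CPM (counts scaled to the size of the library) in control and 47686 to 118339 CPM in No-Trp livers, with 4 called higher and 0 lower, and mouse 102 had the highest sum of the controls. The 10 proliferation markers summed to 1338 to 1527 and 97.6 to 439 CPM, with 8 called lower, and the 9 erythroid markers counted summed to 45.2 to 487 and 6.69 to 18.6 CPM, with 5 of 5 tested called lower. The 5 neutrophil markers counted summed to 119 to 133 and 7.16 to 64.5 CPM. The 8 endothelial markers summed to 91.4 to 173 and 192 to 316 CPM, without overlap, with 2 called higher by edgeR and 3 by DESeq2. Of the 10 macrophage markers none was called, and their sums overlapped (411 to 591 and 361 to 768 CPM). Hepatocyte markers were 376 to 1009 CPM in all 6 xenografts. The 6 cholangiocyte markers summed to 3293 to 12222 CPM in xenografts and 76.1 to 149 CPM in livers over both diets. For the 9 fibroblast and stellate cell markers the sums were 1263 to 6135 and 580 to 777 CPM. In the No-Trp xenografts the 6 adipocyte markers summed to 435 to 939 CPM against 16.0 to 78.3 CPM on the control diet, and the 6 skeletal muscle markers to 35.1 to 70.6 against 2.33 to 21.2 CPM. Proliferation markers summed to 634 to 691 CPM in control and 811 to 1018 CPM in No-Trp xenografts, without overlap and in the direction opposite to the livers, with 1 of 10 called higher and 7 higher at an unadjusted p below 0.05. Endothelial markers summed to 62.4 to 154 and 155 to 250.95 CPM there, also without overlap, with 0 of 8 called by edgeR, 1 higher at an unadjusted p below 0.05 and 1 called higher by DESeq2. In bulk tissue, fewer cells of a type and less RNA per cell cannot be told apart, and the part of these shifts in the results that follow was not tested.

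Of the autophagy genes, 12 rose on adjusted p in MYC-ON livers on the No-Trp diet, among them the whole LC3 family and the receptor genes Sqstm1, Optn and Bnip3l. With edgeR, 6 members were higher at both cut-offs (adjusted p no larger than 0.05, with a difference of 1 or more on the log2 scale), namely Atg9a, Map1lc3a, Map1lc3b, Gabarapl1, Sqstm1 and Optn, where 9.28% of the 14122 genes tested were called higher. None was called lower (7.27% of genes tested), with 1 member lower at an unadjusted p below 0.05 and 0 called lower by DESeq2. On adjusted p alone 12 members were higher (13.3% of genes tested) and 0 lower (12% of genes tested) with edgeR, while DESeq2 had 14 higher and 1 lower (Atg16l2). The other 6 of edgeR were Ulk2, Atg3, Atg5, Gabarap, Gabarapl2 and Bnip3l. The median log2 fold change of the 35 members tested was 0.55, against -0.0031 for all genes tested, with 32 members above 0 and 3 below. Values of the 2 groups did not overlap for 25 members that were higher (24.3% of genes tested) and 2 that were lower (24.3% of genes tested). With library totals as the scale, which moved the median of all genes by -0.29, 28 members lay above 0 and 4 were called (Atg9a, Gabarapl1, Optn and Sqstm1), and the members' median stood 0.54 above that of all genes. Atg4a was not tested, with 0 to 8 reads per library.

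The number of calls in livers depended on which mouse was left out. Leaving out control mouse 101 or 103 left 0 members called, No-Trp mouse 105 left 1 and No-Trp mouse 107 left 2. Without control mouse 102 there were 8, and without No-Trp mouse 108 there were 5. Calls over all genes tested, in either direction, moved as well, from 2337 to 294, 8, 368 and 1269 without mice 101, 103, 105 and 107. They were 3207 without mouse 102 and 2143 without mouse 108. The median log2 fold change of the members was between 0.40 and 0.63 in the 6 fits that each left out 1 mouse. In each of the fits with no member called, 15 members had an unadjusted p below 0.05, and the share over all genes was not counted there. With all 6 livers, 23 of 35 members and 5901 of the 14122 genes tested had such a p. On adjusted p alone 0 members passed without mouse 101 or 103, 1 without 105 and 4 without 107. Without mouse 108 there were 8, and without mouse 102 there were 14. Mouse 107 had the highest hepatocyte marker sum of the No-Trp livers (118339 CPM), as mouse 102 had of the controls (34872 CPM), and it had the highest value of the 6 livers in each of the 6 called members. The part of hepatocyte content in these values was not tested.

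**Figure D1:**
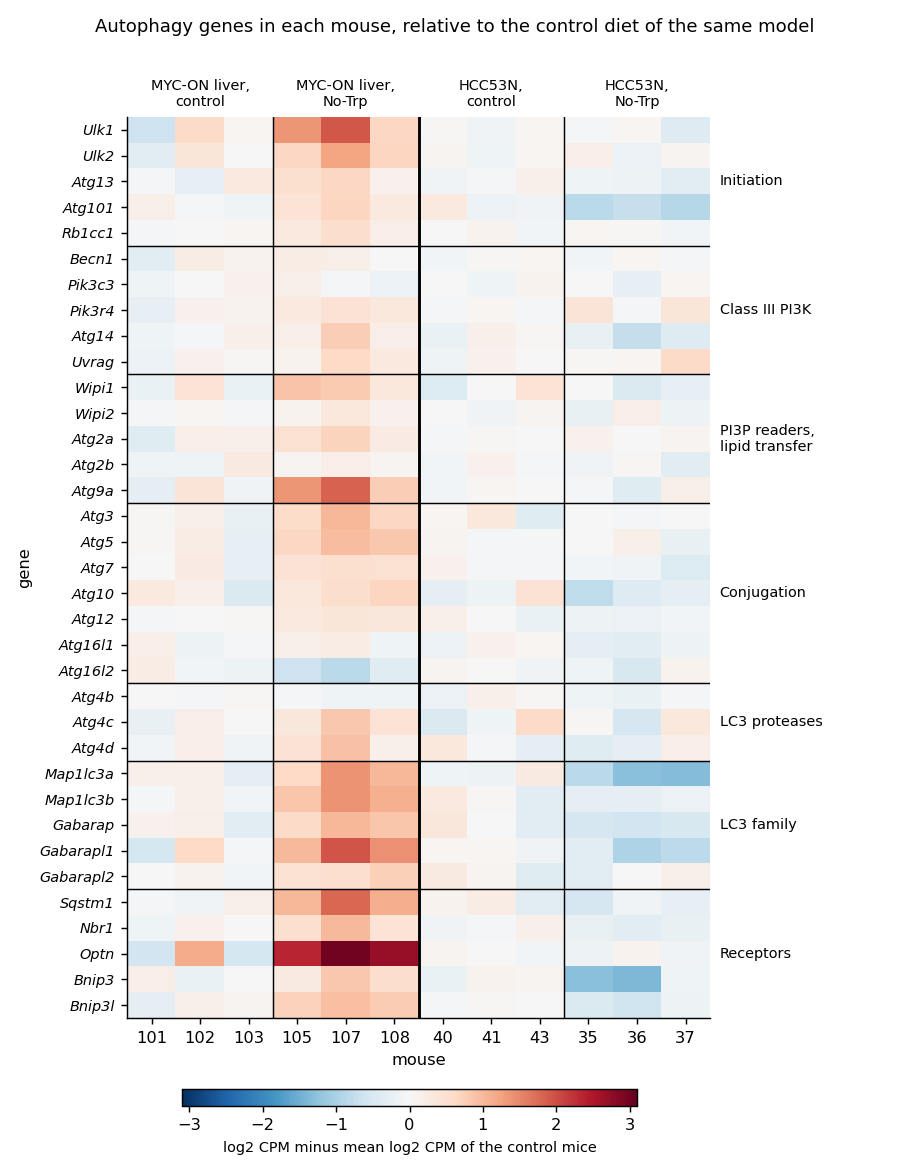
Each row is 1 of the 35 autophagy genes tested and each column 1 mouse, grouped by model and diet. Color gives log2 CPM minus the mean log2 CPM of the 3 control mice of the same model. In the No-Trp livers most rows are red, with Optn the darkest and mouse 107 the darkest column, while the No-Trp xenografts are mostly pale blue.

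The initiation complex consists of the kinases ULK1 and ULK2 with ATG13, ATG101 and RB1CC1 (FIP200). Ulk2 measured 18.3, 30.4 and 23.1 CPM in control livers 101, 102 and 103 and 37.1, 55.4 and 37.7 CPM in No-Trp livers 105, 107 and 108. Every No-Trp liver lay above every control, and Ulk2 was higher with a log2 fold change of 0.86 ± 0.25 (SE, adjusted p = 0.0450). For Ulk1 the control livers held 31.6, 75.8 and 51.8 CPM and the No-Trp livers 129, 192 and 78.6 CPM. Although its log2 difference was larger, 1.33 ± 0.41 (SE, adjusted p = 0.0527), control mouse 102 nearly reached No-Trp mouse 108 and the test was missed. It was called at both cut-offs without mouse 102, without mouse 108, with DESeq2, with the resubmission mark of some libraries as a covariate and in 1 fit over 12 libraries. Atg101 stood at 27.9, 23.7 and 22.2 CPM on the control diet and at 32.9, 38.9 and 30.3 CPM on the No-Trp diet, a log2 difference of 0.47 ± 0.18 (SE, adjusted p = 0.0885). Its groups did not overlap, and the difference missed the adjusted p. Atg13 and Rb1cc1 had log2 differences of 0.43 and 0.35 and missed the test.

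The class III PI3K complexes, in which PIK3C3 (VPS34) makes PI3P with PIK3R4 (VPS15), Beclin 1 and either ATG14 or UVRAG, showed no call in livers. edgeR called 0 of 5 members, with 0 at an unadjusted p below 0.05 and 0 by DESeq2. Pik3r4 came to 19.8, 26.0 and 25.6 CPM in control and 29.4, 32.6 and 29.7 CPM in No-Trp livers, and Uvrag to 40.0, 49.7 and 46.8 CPM and 49.3, 70.0 and 56.5 CPM. Their log2 differences were 0.36 ± 0.17 (SE, adjusted p = 0.155) and 0.36 ± 0.18 (SE, adjusted p = 0.165), with all No-Trp values of Pik3r4 above its controls and those of Uvrag overlapping them. Across the 5 genes the log2 differences ran from -0.02 (Pik3c3) to 0.42 (Atg14). Exons of Becn1 overlap those of Cntd1 on the other strand over 43.9% of their bases, and since the strand setting of the counting is not given its counts are uncertain.

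Among the genes for PI3P readers and lipid transfer, Atg9a, which encodes the membrane protein whose vesicles seed the new membrane, was higher at both cut-offs. The gene lies at chr1:75180860-75192196 on GRCm38. Its level went from 29.6, 47.5 and 33.3 CPM in control to 94.5, 129 and 61.5 CPM in No-Trp livers, a log2 fold change of 1.37 ± 0.30 (SE, adjusted p = 0.0253). Mice 107 and 105 were farthest from the controls and mouse 108 the nearest, with no overlap. Wipi1, a PI3P reader, measured 5.26, 8.41 and 5.29 CPM and 11.8, 11.2 and 7.86 CPM, and its groups overlapped through control mouse 102 (log2 difference 0.70 ± 0.29 SE, adjusted p = 0.113). Wipi2, Atg2a and Atg2b, at log2 differences of 0.19, 0.47 and 0.11, missed the test.

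The conjugation genes encode E1-like, E2-like and scaffold proteins that attach ATG12 to ATG5 and LC3 to lipid. Of the 7, Atg5 and Atg3 were higher on adjusted p alone. Atg5 went from 33.9, 38.9 and 27.6 CPM to 52.0, 64.7 and 59.1 CPM, a log2 fold change of 0.81 ± 0.18 (SE, adjusted p = 0.0253), and Atg3, the E2-like enzyme for LC3, from 44.9, 49.8 and 36.8 CPM to 64.4, 89.8 and 68.4 CPM, a log2 fold change of 0.76 ± 0.19 (SE, adjusted p = 0.0317). In both, each No-Trp liver was above each control. Atg7, Atg10, Atg12 and Atg16l1 had log2 differences from 0.09 to 0.56 and missed the test. Atg16l2, a paralog of the scaffold gene Atg16l1, was the member with the lowest log2 difference (-0.65 ± 0.24 SE, adjusted p = 0.0836), and all 3 No-Trp livers were below the controls. It missed the adjusted p with edgeR and passed it, under the fold cut-off, with DESeq2. The ATG4 proteases trim LC3 proteins before and after their attachment to lipid. Atg4c measured 10.4, 14.2 and 12.3 CPM in control and 15.8, 22.2 and 16.6 CPM in No-Trp livers, with no overlap (log2 difference 0.56 ± 0.22 SE, adjusted p = 0.0996), and Atg4d 22.4, 27.3 and 21.7 CPM and 32.8, 45.1 and 26.6 CPM, with overlap (0.55 ± 0.23 SE, adjusted p = 0.113). Exons of Atg4d overlap those of Kri1 on the other strand over 19.3% of their bases. Of the 3 proteases tested 0 were called by edgeR, with 2 at an unadjusted p below 0.05 and 0 by DESeq2, and Atg4b had a log2 difference of -0.10.

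Every gene of the LC3 family, whose proteins coat the membrane and hold the cargo receptors, passed the adjusted p in livers. From Western blots of MYC-ON livers on both diets and of cultured HCC53N cells given rising amounts of tryptophan, the study reported that autophagy markers were unaffected. That result is for protein, and the values here are for RNA. Map1lc3b (LC3B, chr8:121590361-121598760 on GRCm38) rose from 83.2, 96.9 and 82.5 CPM in control livers 101, 102 and 103 to 160.0, 228 and 188 CPM in No-Trp livers 105, 107 and 108, a log2 fold change of 1.13 ± 0.18 (SE, adjusted p = 0.0171). Gabarapl1 (chr6:129533160-129542346) rose from 56.9, 127 and 79.8 CPM to 167, 321 and 222 CPM, a log2 fold change of 1.43 ± 0.36 (SE, adjusted p = 0.0311). Control mouse 102 had the highest Gabarapl1 of the controls and came near No-Trp mouse 105, and exons of this gene overlap 1700101I11Rik on the other strand over 28.3% of their bases. Map1lc3a (LC3A, chr2:155276297-155278073) rose from 14.2, 14.1 and 10.1 CPM to 19.8, 34.0 and 26.6 CPM, a log2 fold change of 1.06 ± 0.26 (SE, adjusted p = 0.0294). Gabarap rose from 114, 117 and 82.4 CPM to 155, 212 and 188 CPM, with 0.83 ± 0.20 (SE, adjusted p = 0.0301), under the fold cut-off. Gabarapl2 rose least, from 27.3, 29.7 and 26.1 CPM to 38.8, 40.2 and 46.7 CPM, a log2 fold change of 0.60 ± 0.15 (SE, adjusted p = 0.0332). In all 5 genes the lowest No-Trp liver was above the highest control. Of the 6 fits that each left out 1 mouse, Map1lc3b passed the adjusted p in 4, and each of the other LC3 genes in 1.

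All 5 receptor genes had a log2 difference above 0 in livers, and 3 passed the adjusted p. Optn encodes optineurin, a receptor for damaged mitochondria and bacteria, and had the largest change of all members. The gene lies at chr2:5020642-5064051 (GRCm38, GENCODE M21). It measured 15.7, 54.1 and 16.2 CPM in control and 127, 196 and 160.1 CPM in No-Trp livers, a log2 fold change of 2.49 ± 0.52 (SE, adjusted p = 0.0239). Control mouse 102, which also had the highest hepatocyte marker sum of the controls, stood above the other 2 controls in Optn, and without it the log2 fold change was 3.32. Without mouse 101, 103, 105 or 107 Optn missed the adjusted p, and the lowest value of the 6 such fits was 2.18. Sqstm1 (chr11:50199366-50210827), which encodes the ubiquitin-binding receptor p62, rose from 203, 198 and 242 CPM to 433, 738 and 463 CPM, a log2 fold change of 1.35 ± 0.26 (SE, adjusted p = 0.0205), with mouse 107 well above the other No-Trp mice. Bnip3l (NIX), a mitochondrial receptor also known for clearing mitochondria from red cell precursors, rose from 47.4, 65.1 and 61.1 CPM to 93.6, 110.3 and 98.8 CPM, a log2 fold change of 0.80 ± 0.17 (SE, adjusted p = 0.0235). The erythroid markers fell in the same livers, and the part of erythroid content in this value was not tested. Reads of Bnip3l could also be shared with its pseudogene copy Bnip3l-ps. The Bnip3l paralog Bnip3 measured 254, 192 and 221 CPM and 266, 392 and 321 CPM, and its difference, 0.55 ± 0.21 (SE, adjusted p = 0.0924), missed the test although the groups did not overlap. Nbr1, a relative of Sqstm1, had a log2 difference of 0.66 ± 0.21 (SE, adjusted p = 0.0563).

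**Figure D2:**
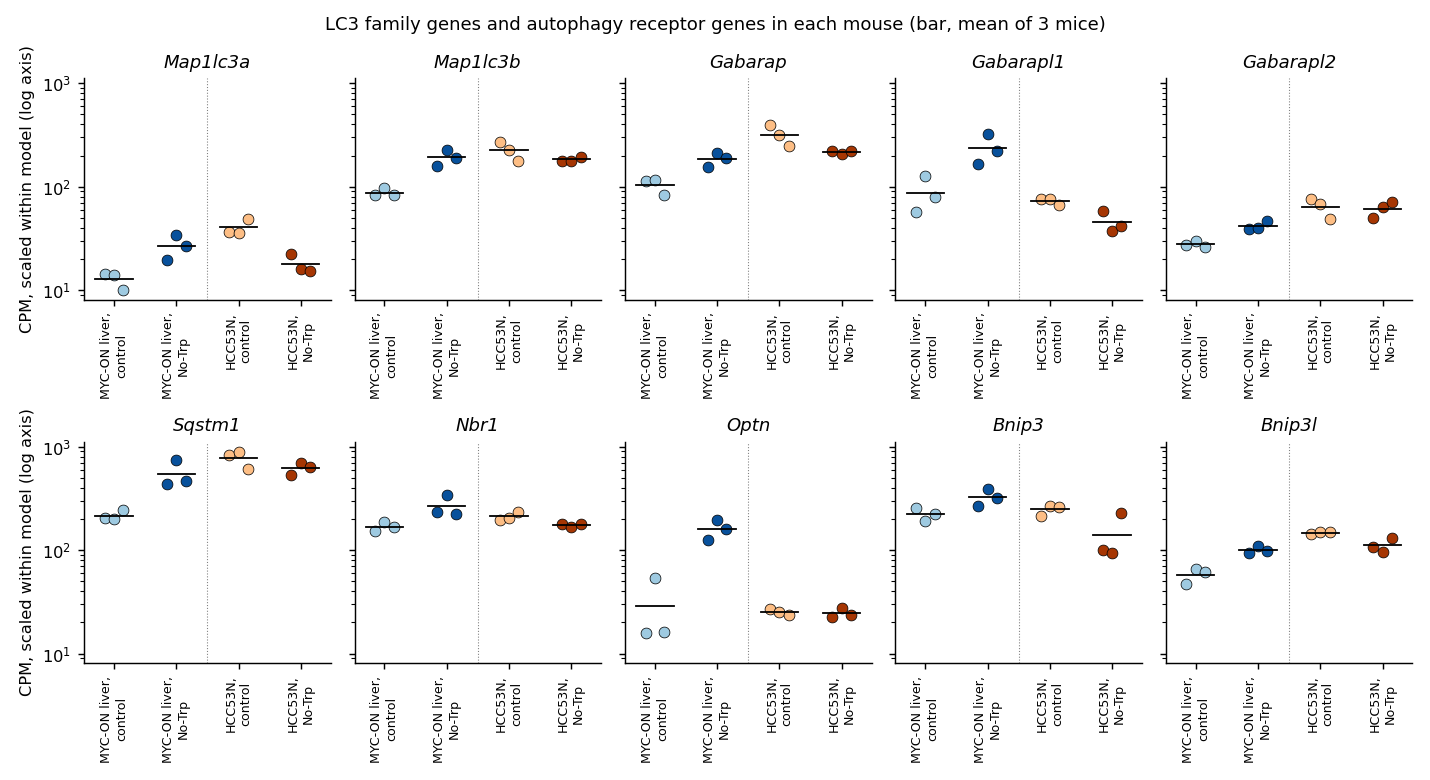
Points are single mice and bars the mean of 3, with CPM on a log axis, for the 5 LC3 family genes (top) and the 5 receptor genes (bottom). In livers the No-Trp points lie above the control points in all 10 genes, and in Optn the control mouse at 54.1 CPM lies between the other controls and the No-Trp mice.

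Promoter sequence was read for every member with a window, whether or not it passed a test, to show what their starts share. RefSeq windows on GRCm38.p6, from 250 bases before to 50 after the start, matched 29 of the 36 genes by symbol. CACGTG, the E-box that MYC and TFEB can bind, was found in the windows of 5 members (Atg14, Atg3, Atg5, Atg7 and Bnip3), which is 17.2% of 29, and in 8.09% of the 27025 genes with a window. The windows of Atg7 (chr6:114670846-114671145) and Atg14 (chr14:47568385-47568684) lie inside the genes. GENCODE M21 starts these at 114643097 (Atg7, plus strand) and 47570649 (Atg14, minus strand). The longer TCACGTGA, which holds CACGTG and is known as the core of the CLEAR element of TFEB, was found in Atg3 and in 1.12% of all genes. TGACNNNGC, the antioxidant response element, was found in Atg13, Map1lc3b and Ulk2, 10.3% of the 29 and 14% of all genes. TGTTTAC (FOXO) and TGATGNAAT (ATF4 type) were found in none of the 29, and in 4.05% and 1.08% of all genes. Motifs were searched on both strands, a match is a description and not a site, and member windows had a median GC content of 61.7% against 52.7% for all windows. The last 200 bases before the start are shown for the E-box members Atg3 and Atg5, which passed the adjusted p in livers, for Bnip3, an E-box member that missed it, and for Gabarapl1, Sqstm1 and Optn, which had 3 of the 4 largest rises and no match, with CACGTG or TCACGTGA in capitals.
Atg3 (chr16:45158629-45158828, plus strand): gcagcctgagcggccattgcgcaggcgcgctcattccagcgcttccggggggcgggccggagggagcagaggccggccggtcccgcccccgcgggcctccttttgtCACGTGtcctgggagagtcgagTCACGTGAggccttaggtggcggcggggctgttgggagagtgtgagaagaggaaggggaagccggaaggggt
Atg5 (chr10:44268139-44268338, plus strand): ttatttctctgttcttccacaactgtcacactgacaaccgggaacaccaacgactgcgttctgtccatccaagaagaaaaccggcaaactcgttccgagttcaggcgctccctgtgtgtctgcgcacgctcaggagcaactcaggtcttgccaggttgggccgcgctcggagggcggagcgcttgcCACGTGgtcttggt
Bnip3 (chr7:138909507-138909706, minus strand): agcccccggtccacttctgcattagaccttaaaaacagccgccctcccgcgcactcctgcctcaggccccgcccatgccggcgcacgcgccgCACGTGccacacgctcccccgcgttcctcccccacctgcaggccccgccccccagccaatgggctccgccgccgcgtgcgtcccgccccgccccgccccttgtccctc
Gabarapl1 (chr6:129532992-129533191, plus strand): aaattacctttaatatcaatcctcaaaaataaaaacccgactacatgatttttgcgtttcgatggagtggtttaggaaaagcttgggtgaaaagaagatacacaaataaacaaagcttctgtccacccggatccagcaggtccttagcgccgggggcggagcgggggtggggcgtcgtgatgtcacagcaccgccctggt
Sqstm1 (chr11:50210821-50211020, minus strand): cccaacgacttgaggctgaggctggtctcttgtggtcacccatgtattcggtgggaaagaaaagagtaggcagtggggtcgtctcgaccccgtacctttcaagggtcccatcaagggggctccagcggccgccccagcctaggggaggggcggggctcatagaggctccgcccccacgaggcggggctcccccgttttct
Optn (chr2:5064118-5064317, minus strand): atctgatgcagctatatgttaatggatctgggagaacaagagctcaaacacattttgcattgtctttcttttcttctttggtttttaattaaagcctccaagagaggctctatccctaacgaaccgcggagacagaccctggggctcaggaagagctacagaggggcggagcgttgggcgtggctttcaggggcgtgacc

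Atg3 holds CACGTG at 94 and 71 bases before the start, Atg5 at 14 and Bnip3 at 108. Of the 10 members that passed the adjusted p in livers and have a window, 2 hold an E-box, and 2 hold TGACNNNGC (Map1lc3b and Ulk2).

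In HCC53N xenografts no member was called between the diets. edgeR called 0 of 35 members higher (0.245% of 14704 genes tested) and 0 lower (0.116% of genes tested), and 0 passed the adjusted p alone (0.374% of genes tested in either direction). At an unadjusted p below 0.05 there were 6 of 35 members, all lower on the No-Trp diet. In either direction, 2483 of the 14704 genes tested had such a p. DESeq2 called Map1lc3a lower, with Atg101 also past its adjusted p. The median log2 difference of the members was -0.15, against -0.0045 for all genes tested, with 29 members below 0 and 6 above. Groups did not overlap for 10 members that were lower (12.4% of genes tested) and for 0 that were higher (10.3% of genes tested). Scaling by library totals moved the median over all genes by 0.11 and left 20 members below 0.

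Map1lc3a had the lowest log2 difference among xenografts. It measured 36.7, 35.7 and 49.1 CPM in control xenografts 40, 41 and 43 and 22.4, 15.9 and 15.4 CPM in No-Trp xenografts 35, 36 and 37, a log2 difference of -1.18 ± 0.22 (SE, adjusted p = 0.0575). Atg101 stood at 94.7, 67.5 and 71.8 CPM and 42.9, 46.8 and 41.4 CPM (-0.84 ± 0.17 SE, adjusted p = 0.0721). In both genes all 3 No-Trp tumors were below all controls, and both missed the adjusted p. Gabarapl1 measured 76.4, 75.5 and 67.3 CPM and 58.0, 37.4 and 41.5 CPM (-0.68 ± 0.19 SE, adjusted p = 0.147), and Gabarap 398, 316 and 245 CPM and 220.1, 209 and 222 CPM (-0.56 ± 0.19 SE, adjusted p = 0.197), again with no overlap. Map1lc3b, at 272, 225 and 176 CPM and 178, 179 and 195 CPM, and Gabarapl2, at 76.2, 67.6 and 49.0 CPM and 49.4, 63.0 and 71.2 CPM, overlapped between the diets.

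Among the receptors, Bnip3 measured 215, 268 and 262 CPM in control and 101, 93.4 and 226 CPM in No-Trp xenografts. Mice 35 and 36 were below all controls and mouse 37 was within the control range, and the log2 difference of -0.83 ± 0.34 (SE, adjusted p = 0.277) went from -0.61 to -1.34 when single mice were left out. Bnip3l stood at 142, 150.3 and 149 CPM and 107, 95.6 and 132 CPM (-0.40 ± 0.16 SE, adjusted p = 0.255), with mouse 37 again the nearest to the controls. Bnip3 and Bnip3l are known targets of hypoxia. Sqstm1, at 822, 889 and 602 CPM and 527, 699.8 and 635 CPM, overlapped between the diets (-0.31 ± 0.19 SE, adjusted p = 0.446), and so did Optn, at 26.9, 25.4 and 23.6 CPM and 22.5, 27.5 and 23.4 CPM (-0.05 ± 0.17 SE, adjusted p = 0.915).

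The remaining genes read per mouse in the livers overlapped between the diets in xenografts. Ulk1 had 82.4, 73.7 and 83.9 CPM and 78.3, 83.2 and 60.9 CPM, Ulk2 41.7, 35.9 and 41.1 CPM and 45.4, 35.0 and 41.7 CPM, and Atg9a 38.6, 42.5 and 41.0 CPM and 39.0, 31.3 and 46.3 CPM. Atg5 had 43.1, 39.5 and 38.7 CPM and 40.8, 46.1 and 34.5 CPM, and Atg3 46.4, 56.6 and 34.4 CPM and 45.3, 44.1 and 45.1 CPM. Their log2 differences were -0.11, 0.04, -0.07, 0.00 and -0.03. Pik3r4 (0.26), Uvrag (0.25), Wipi1 (-0.27), Atg4c (-0.08) and Atg4d (-0.17) overlapped as well.

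**Figure D3:**
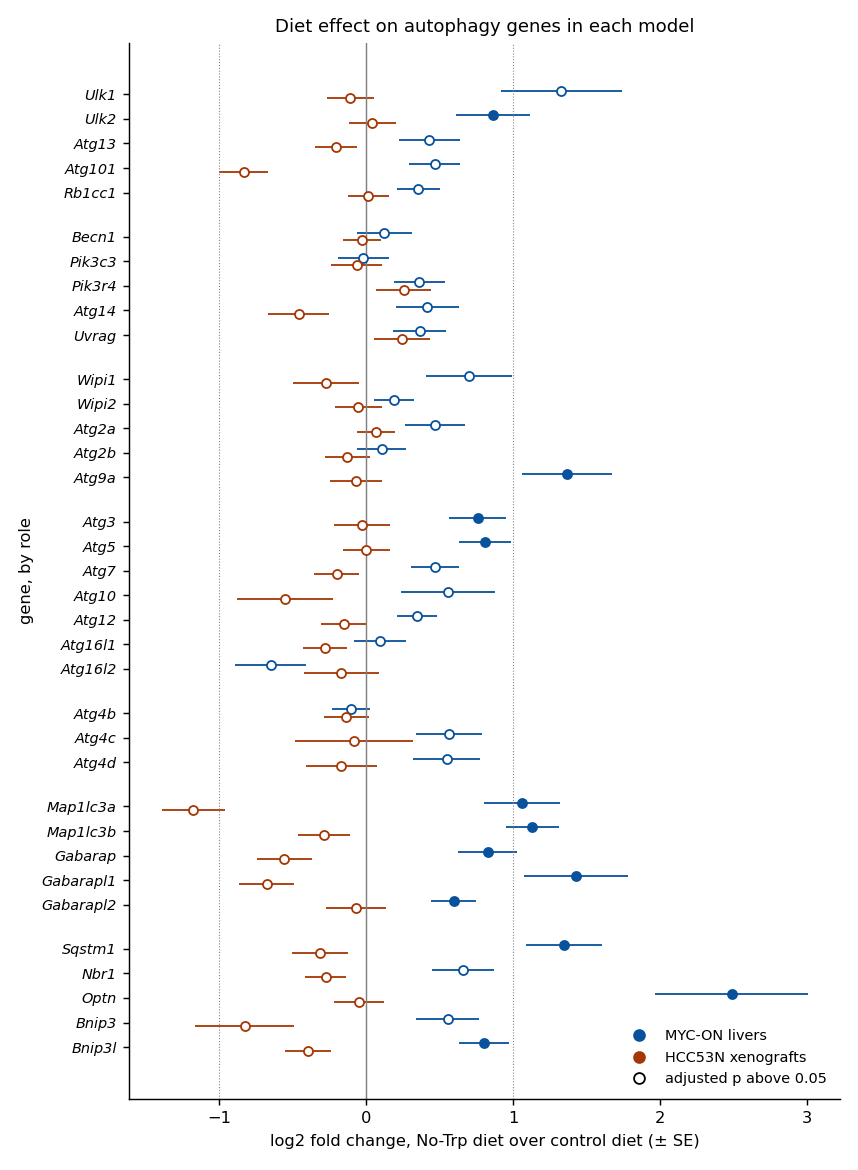
Points give the log2 fold change of each gene, No-Trp over control diet, with its SE, in MYC-ON livers (blue) and HCC53N xenografts (brown), ordered by role. Filled points passed an adjusted p of 0.05, dotted lines mark a log2 fold change of 1 in either direction, and the 12 filled points all belong to livers.

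The difference between the diet effects of the models was tested itself, with a fit of all 12 libraries that has a term for the interaction, in which the liver effect minus the xenograft effect was called higher at both cut-offs for 10 members (6.01% of 15472 genes tested) and lower for 0 (6.7% of genes tested). No member was lower at an unadjusted p below 0.05 in edgeR or by DESeq2. The largest differences were those of Optn, at 2.50 ± 0.57 (SE, adjusted p = 0.0174), Map1lc3a, at 2.21 ± 0.35 (SE, adjusted p = 0.00623), and Gabarapl1, at 2.08 ± 0.42 (SE, adjusted p = 0.0118). Those with the smallest adjusted p were Map1lc3a, Map1lc3b (1.39 ± 0.25 SE, adjusted p = 0.00922), Bnip3l (1.18 ± 0.22 SE, adjusted p = 0.0101) and Atg101 (1.27 ± 0.24 SE, adjusted p = 0.0102). Sqstm1, Atg9a, Gabarap and Bnip3 made up the rest of the 10, at log2 differences of 1.36 to 1.63. In the xenografts Map1lc3a, Gabarapl1, Gabarap and Atg101 lay lower on the No-Trp diet without passing the test, while Optn and Atg9a had log2 differences of -0.05 and -0.07 there. Library totals, which moved the median of all genes by -0.37, left 24 members above 0 and 4 called (Gabarapl1, Map1lc3a, Optn and Sqstm1). Leaving out each of the 12 mice kept 8 of the 10 called in every fit, Bnip3 in 2 and Atg9a in 7 of the 12 fits. The model is confounded with tissue site, host strain, sex and origin of the cells, which cannot be told apart.

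The balance within the LC3 family was compared as shares of its summed RPKM (CPM divided by transcript length), which do not depend on library scaling. Gabarap held the largest share in the control livers, with 47.5, 38.4 and 37.6% in mice 101, 102 and 103. It held 36.9, 32.9 and 35.9% in No-Trp mice 105, 107 and 108, each below every control. Gabarapl1 took 17.6, 31.1 and 27.0% in control and 29.6, 36.9 and 31.5% in No-Trp livers, so that the groups overlapped and in mouse 107 Gabarapl1 was ahead of Gabarap. Gabarapl2 was at 9.16, 7.87 and 9.62% and 7.45, 5.01 and 7.20%, with every No-Trp liver below every control. In xenografts Gabarapl1 held 8.03, 9.50 and 10.2% on the control diet and 10.1, 6.90 and 7.11% on the No-Trp diet, below every liver, and Gabarap more than any liver, with 56.4, 53.5 and 50.2% and 51.8, 52.0 and 51.3%. Map1lc3b held 20.6, 20.4 and 19.3% on the control diet and 22.3, 23.7 and 24.1% on the No-Trp diet in xenografts, without overlap. Gabarapl2 held 8.70, 9.24 and 8.08% and 9.37, 12.6 and 13.2% there, also without overlap and in the direction opposite to the livers. With 3 mice against 3 an exact permutation test cannot go below a two-sided p of 0.1, and no p is given for these shares.

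**Figure D4:**
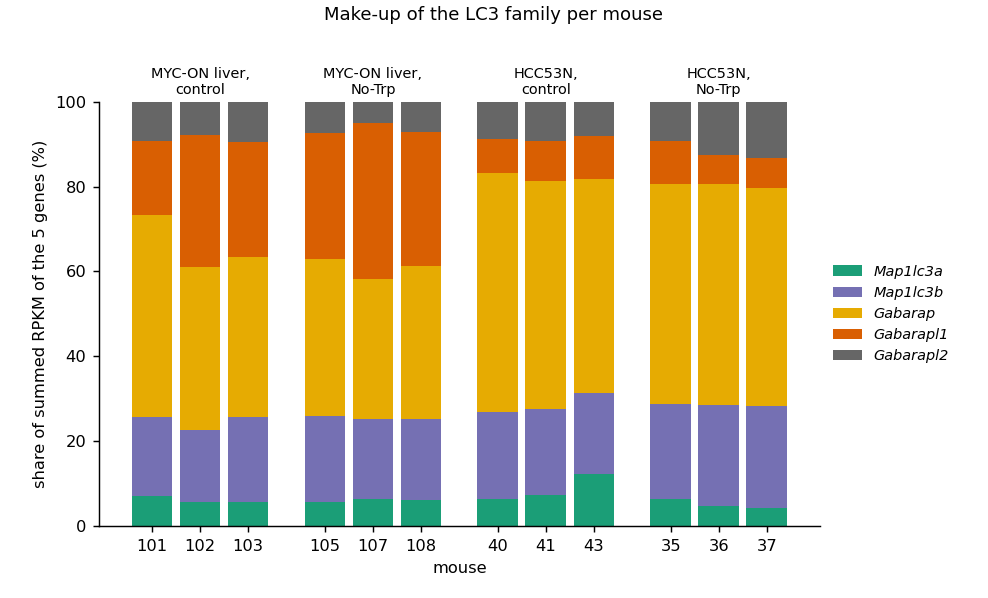
Each bar is 1 mouse, and colors give the share of each of the 5 LC3 family genes in their summed RPKM. Gabarapl1 takes 17.6% to 36.9% in livers and 6.90% to 10.2% in xenografts, and Gabarap more than 50% in each xenograft.

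Between the models, fewer members were called than the share over all genes would give, apart from those lower in xenografts on the No-Trp diet, whose share was near it. On the control diet 5 of 35 were higher in xenografts (23.3% of genes tested) and 1 lower (20.2% of genes tested). Wipi1 stood at 3.51 ± 1.03 RPKM (mean ± SD, n = 3) in control livers and 22.4 ± 6.45 RPKM in control xenografts, a log2 fold change of 2.68 ± 0.28 (SE, adjusted p = 6.81e-06). Sqstm1 was at 91.0 ± 9.49 and 254 ± 50.4 RPKM, a log2 fold change of 1.48 ± 0.23 (SE, adjusted p = 1.70e-04), with no overlap in either gene. Atg101, Map1lc3a and Gabarap were also higher, with log2 fold changes of 1.30, 1.29 and 1.25, and Atg4c was lower, with -1.46. On the No-Trp diet 1 of 35 was higher in xenografts (24.5% of genes tested), again Wipi1 (1.73), and 8 were lower (19.1% of genes tested). Optn was at 69.1 ± 14.5 RPKM in No-Trp livers and 8.32 ± 0.947 RPKM in No-Trp xenografts, a log2 fold change of -3.05 ± 0.42 (SE, adjusted p = 7.56e-05), and Gabarapl1 at 146 ± 47.1 and 22.3 ± 5.44 RPKM, a log2 fold change of -2.71 ± 0.32 (SE, adjusted p = 1.51e-05). Atg4c, Atg9a and Bnip3 followed with -2.08, -1.63 and -1.57, and Ulk1, Atg4d and Atg3 lay between -1.06 and -1.18. These 2 comparisons share no mice, but each shares its mice with the diet comparisons. Scaling by library totals moved the median of all genes by 0.16 on the control diet and by 0.53 on the No-Trp diet.

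Ranked per length, Sqstm1 had the highest mean RPKM of the 36 genes in 3 of the 4 groups, and Bnip3 in the control livers, with 144 ± 19.7 RPKM. Bnip3, Sqstm1 and Gabarap filled the first 3 places in each of the 4 groups. Optn went from place 19 of 36 in control livers to place 6 in No-Trp livers and was at place 24 in both xenograft groups. Atg4a was last in every group, at a mean of at most 0.05 RPKM.

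Other genes of the route were read from lists that hold none of the 36. Their counts stand against the 9.28% of all genes called higher and 7.27% called lower in livers, or 13.3% and 12% on adjusted p alone. Of 16 further core genes, 4 were called higher in No-Trp livers and 0 lower. They were Trp53inp1, a p53 target whose protein binds LC3, at 2.83 ± 0.24 (SE, adjusted p = 0.00672), Zfyve1 (DFCP1), a PI3P-binding protein of the membrane's birthplace, at 1.92 ± 0.44 (SE, adjusted p = 0.0268), Vmp1, an ER protein needed to close the membrane, at 1.38 ± 0.18 (SE, adjusted p = 0.0136), and Wdr45, a WIPI relative, at 1.02. Of 18 further receptors, 6 were called higher and 0 lower, with Retreg1 (counted as Fam134b), a receptor for the ER, at 2.81 ± 0.56 (SE, adjusted p = 0.0225), Pink1, the kinase that marks damaged mitochondria, at 1.58 ± 0.34 (SE, adjusted p = 0.0242), and Calcoco1, a receptor for ER and Golgi, at 1.51 ± 0.24 (SE, adjusted p = 0.0168). Medians of these lists were 0.55 and 0.43.

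Of 13 genes for fusion of the autophagosome with the lysosome, 1 was called higher in No-Trp livers, the SNARE gene Vamp8 (1.06 ± 0.25 SE, adjusted p = 0.0270), 0 lower, and 4 were higher on adjusted p alone. At both cut-offs the fusion genes were thus no more often called than all genes (9.28%). Of 35 lysosome genes, 6 were called higher and 1 lower, and 13 and 1 on adjusted p alone. The highest were the protease genes Ctsl (2.70 ± 0.32 SE, adjusted p = 0.0127) and Ctsh (1.93 ± 0.42 SE, adjusted p = 0.0249) and the cholesterol exporter Npc1 (2.17 ± 0.37 SE, adjusted p = 0.0181), and the lower one was Glb1, the lysosomal β-galactosidase (-1.08 ± 0.31 SE, adjusted p = 0.0422). Of 15 transcription factors and regulators of autophagy genes, 3 were called higher and 0 lower, namely Ppara, the fasting regulator (2.25 ± 0.41 SE, adjusted p = 0.0196), Nr1h4, the bile acid receptor FXR, known to repress autophagy genes in the fed liver (2.02 ± 0.29 SE, adjusted p = 0.0146), and Mitf, a relative of TFEB (1.05 ± 0.28 SE, adjusted p = 0.0373). Ppara, Nr1h4 and hepatocyte markers are all abundant in hepatocytes, and the part of hepatocyte content in these values was not tested. In the 4 lists with 0 called lower, 2 genes were lower at an unadjusted p below 0.05 and DESeq2 called 0 lower at both cut-offs. In xenografts edgeR called 0 genes of the 5 lists in either direction, and DESeq2 called 1, Calcoco1, lower. At an unadjusted p below 0.05 the lists held 12 in all, and 2483 of the 14704 genes tested there had such a p.

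**Figure D5:**
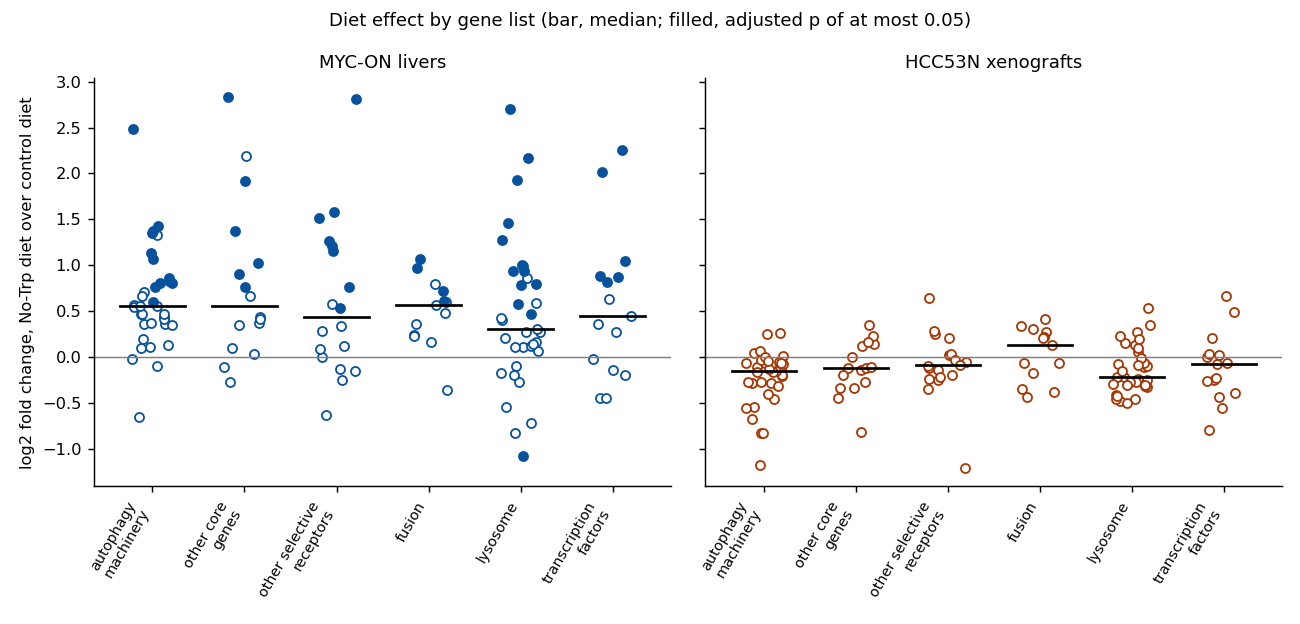
Each point is 1 gene tested, with its log2 fold change on the No-Trp diet, in livers (left) and xenografts (right), for the autophagy machinery and the 5 other lists. Bars are medians and filled points passed an adjusted p of 0.05. The medians run from 0.31 to 0.56 in livers and from -0.22 to 0.13 in xenografts, where no point is filled.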

How the data were processed

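Polyadenylated RNA of 6 MYC-ON livers and 6 HCC53N xenografts was used. The deposited values are raw counts of reads for each gene, made by the authors with Trim Galore, STAR 2.7.2b on mm10 and HTSeq, not normalized, per the labels and the study's methods. The strand setting and overlap rule are not given in the sources used here. Between 24.7% and 39.4% of listed reads were not assigned to a single gene by the counting, for any reason, and were left out. Each diet comparison was fitted over its 6 libraries and the other comparisons over 12 with edgeR 4.0.16 in R 4.3.3 (TMM, filterByExpr, robust glmQLFit, glmQLFTest, two-sided), with Benjamini-Hochberg adjustment over all genes tested. Calls used the 2 cut-offs of the study's methods, 0.05 for the adjusted p and 1 for the log2 fold change in size. SE is the log2 fold change divided by the square root of F. CPM uses TMM scaling within each model, and RPKM scaling over 12 libraries and the longest RefSeq-paired transcript in GENCODE M21. The coefficient of variation between mice was 31.6% in livers and 28.7% in xenografts.

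Members and lists were chosen with earlier results of these data known. Per-mouse values are given for members called in a diet comparison, the 2 members per role with the smallest adjusted p in livers, the LC3 family, Sqstm1, Bnip3, Bnip3l and the 4 members that rank first by interaction p. Model comparisons name up to 6 called members, and each other list up to 3 called genes. Members named beside these, and Wdr45, Glb1 and the lower-ranked model genes, were chosen after their values were seen. Alternatives were DESeq2 1.42.0, RLE factors, library totals, leaving out Rn45s, 2 other filters, adjusted p alone, a resubmission mark as a covariate, 1 fit over 12 libraries, and leaving out each mouse. The mark was carried by livers 101 and 108 and xenografts 41 and 43, and its meaning is not given. The steps were tested on simulated counts.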

Additional observations from a re-analysis of the deposited data

Results flagged for a closer look

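The diet effect differed between the models for 10 members by the test of the interaction, liver effect minus xenograft effect on the log2 scale: Optn 2.50, Map1lc3a 2.21, Gabarapl1 2.08, Sqstm1 1.63, Atg9a 1.41, Map1lc3b 1.39, Bnip3 1.36, Gabarap 1.36, Atg101 1.27 and Bnip3l 1.18. Their adjusted p from edgeR ran from 0.00623 to 0.0444. Map1lc3a had opposite directions in the models, with every No-Trp liver above and every No-Trp xenograft below the controls of its model, and so had Gabarapl1, Gabarap, Atg101 and Bnip3l. None of these genes passed the adjusted p in xenografts (edgeR, 0.0575 to 0.255), and Atg101 also missed it in livers (0.0885). Of all genes tested, 24.3% were higher without overlap in livers and 12.4% lower without overlap in xenografts. The share with both was not counted. Bnip3 was called in 2 of the 12 fits that each left out 1 mouse, with values of 1.14 to 1.87.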

How the results depend on the processing

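No paired analysis was possible because no animal number is shared between groups. In livers, 6 members were called higher as reported, 12 on adjusted p alone and 0 to 8 when 1 mouse was left out, the low counts being 0 without control mouse 101 or 103, 1 without 105 and 2 without 107 of the No-Trp mice. Library totals moved the median of all genes by -0.29 in livers and by -0.37 in the interaction, and left 28 of 35 members above 0 in livers, where 4 members were called higher. In xenografts, 1 member was called lower with DESeq2 and with no filter on low counts, against 0. The interaction gave 4 higher members with library totals in place of 10. Between models on the control diet, 5 higher members became 9 with library totals, 11 on adjusted p alone and 5 to 8 when 1 mouse was left out (8 without liver mouse 102), and 1 lower member became 6 on adjusted p alone. On the No-Trp diet, 8 lower members became 13 with RLE factors, 13 with DESeq2, 5 with library totals, 21 on adjusted p alone and 5 to 10 when 1 mouse was left out (5 without liver mouse 107). The causes of these moves were not tested, apart from the fewer mice or looser cut-off that some settings bring by construction. No log2 fold change of a called member changed sign in the diet comparisons or the interaction under the alternatives run. Of the single-gene values under alternatives, 455 in livers, 485 in xenografts and 623 in the interaction were rated the same. A call was lost in 25, 0 and 22. Rated the same were values that kept their direction and side of the cut-offs. Uncalled values that changed sign by a shift smaller than the SE also counted as the same.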
